A study of Homo sapiens with 4 samples.

Results

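Mucins and the enzymes that build their O-glycans were compared between 2 breast cancer cell lines, MDA-MB-231 and LM2-4175. The members were the genes named GALNT or MUC with a number, together with C1GALT1, C1GALT1C1, GCNT1, ST3GAL1, ST6GALNAC1 and ST6GALNAC5. This gave 42 of the 57815 genes in the deposited table, under 41 symbols because MUC3A is listed with 2 Ensembl IDs. They comprise 17 initiating enzymes, 6 later enzymes and 19 mucin genes. The parental MDA-MB-231 cells come from a triple-negative breast cancer, and LM2-4175 (LM2 from here on) is a line isolated from them that spreads to the lung. Both were grown untreated in the same medium, and the total RNA of 2 libraries per cell line was sequenced. LM2 is a single derived line, so metastatic ability and other differences between the cultures cannot be told apart, nor can fewer cells of a type and less RNA per cell in such bulk samples. For each cell line the authors merged both libraries in 1 FPKM (fragments scaled by transcript length and by the fragments mapped) with a lower and an upper bound. There is therefore no value per library, no SD and no replicate test, and none of the differences has a replicate check. The number of fragments behind each FPKM is unknown, and the sources are silent on which spread the bounds cover.

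Mucins are large proteins whose repeats are rich in serine and threonine, which carry dense O-linked glycans. The GALNT enzymes start each glycan in the Golgi by moving N-acetylgalactosamine (GalNAc) from a nucleotide sugar to serine or threonine, and they differ in the peptides or partly glycosylated peptides that they prefer. C1GALT1 then adds galactose to give the core 1 structure, for which it needs the chaperone encoded by C1GALT1C1. GCNT1 branches core 1 into core 2, and sialyltransferases such as ST3GAL1 and ST6GALNAC1 end the chains. In breast cancer, short and sialylated glycans on MUC1 are known tumour antigens.

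Promoter sequences are shown for the genes called different below and for MUC1, the most abundant mucin in MDA-MB-231, as sequence context. The FPKM are per gene and do not show which start was used. The RefSeq table of build GRCh38.p14 held a promoter (250 bases before to 50 after a start) for 28 of the 41 symbols, among them GALNT1, GALNT9, GALNT14 and C1GALT1C1. GALNT18, MUC5AC and MUC15 had no entry. Where a gene had several starts, the window with the most CpG dinucleotides is printed. Capitals mark GGGCGG or its complement (the Sp1 GC box, found in 45.0% of 35114 promoters of this length on either strand) and TATAAA on either strand (the TATA box, 11.5%).
GALNT9, chr12:132329540-132329839, minus strand: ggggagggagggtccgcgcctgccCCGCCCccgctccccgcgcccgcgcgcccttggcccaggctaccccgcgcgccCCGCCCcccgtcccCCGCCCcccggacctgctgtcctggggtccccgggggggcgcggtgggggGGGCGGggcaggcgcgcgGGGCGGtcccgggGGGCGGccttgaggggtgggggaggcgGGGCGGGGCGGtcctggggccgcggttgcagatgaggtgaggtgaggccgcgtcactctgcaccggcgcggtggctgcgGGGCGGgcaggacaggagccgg
GALNT14, chr2:31138391-31138690, minus strand: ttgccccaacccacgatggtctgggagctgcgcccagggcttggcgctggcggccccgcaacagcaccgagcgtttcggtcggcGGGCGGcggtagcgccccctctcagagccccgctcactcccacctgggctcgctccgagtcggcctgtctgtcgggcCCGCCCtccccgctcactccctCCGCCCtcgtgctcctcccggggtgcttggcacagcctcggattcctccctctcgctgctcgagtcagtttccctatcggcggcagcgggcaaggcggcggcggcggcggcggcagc
C1GALT1C1, chrX:120630005-120630304, minus strand: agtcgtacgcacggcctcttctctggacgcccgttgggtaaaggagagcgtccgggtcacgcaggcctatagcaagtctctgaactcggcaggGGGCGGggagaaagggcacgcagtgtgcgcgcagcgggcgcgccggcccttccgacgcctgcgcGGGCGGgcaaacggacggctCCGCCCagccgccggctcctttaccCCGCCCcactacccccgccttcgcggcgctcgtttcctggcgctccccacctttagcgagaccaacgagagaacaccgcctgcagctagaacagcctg
GALNT1, chr18:35581490-35581789, plus strand: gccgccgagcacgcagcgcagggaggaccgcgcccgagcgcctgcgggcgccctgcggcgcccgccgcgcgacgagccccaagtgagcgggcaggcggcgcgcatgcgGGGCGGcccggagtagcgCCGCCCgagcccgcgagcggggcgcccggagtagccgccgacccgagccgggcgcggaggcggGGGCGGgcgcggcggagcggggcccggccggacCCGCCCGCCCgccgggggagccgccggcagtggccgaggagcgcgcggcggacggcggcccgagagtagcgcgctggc
MUC1, chr1:155192866-155193165, minus strand: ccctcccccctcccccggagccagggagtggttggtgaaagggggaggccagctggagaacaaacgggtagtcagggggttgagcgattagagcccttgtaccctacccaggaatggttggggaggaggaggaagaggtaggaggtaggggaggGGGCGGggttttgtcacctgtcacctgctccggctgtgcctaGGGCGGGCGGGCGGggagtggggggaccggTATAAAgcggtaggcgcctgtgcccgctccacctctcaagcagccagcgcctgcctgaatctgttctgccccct

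The windows differ in base composition. That of GALNT1 has 62 CpG dinucleotides and that of GALNT9 has 39, against a median of 14 over all promoters, and that of MUC1 has 13. MUC1 is also the one of these 5 windows with a TATAAA match. Over the 12 initiating enzymes in the RefSeq table, the window with the most CpG held a median of 32 and 0 had TATAAA. Over the 12 mucins the median was 8 and 5 had TATAAA. For AP-1 the pattern searched was TGANTCA with any base at N, which 7.71% of all promoters held. It was matched in these windows for 1 initiating enzyme (GALNT15, as TGAATCA) and 3 mucins. The letters matched were TGAATCA in MUC2, TGAGTCA in MUC13 and TGACTCA in MUC17. The E-box CACGTG, held by 7.26%, was matched in the other listed window of GALNT9.

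Whether any of these genes differed in level was read from the FPKM and the bounds. Genes that the authors' status column passed as OK and that had a mean of at least 0.5 FPKM were tested. A gene was called where FPKM + 1 changed by at least 1.5-fold and the 2 intervals between the bounds were apart. The filter left 24 of the 42 members and 13911 genes of the table. Of the 24, 5 were called higher in LM2 (GALNT9, MUC5AC, MUC15, GALNT14 and C1GALT1C1), beside 4.67% of all genes tested. GALNT18 and GALNT1 were the 2 called lower, beside 4.61%. GALNT9, MUC5AC and MUC15 were under 0.5 FPKM in MDA-MB-231 and passed the filter only through LM2, as did GALNT16 and MUC5B, so the count is not read against the background. The same holds for 200 of the 649 genes called higher in the whole table.

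**Figure D1:**
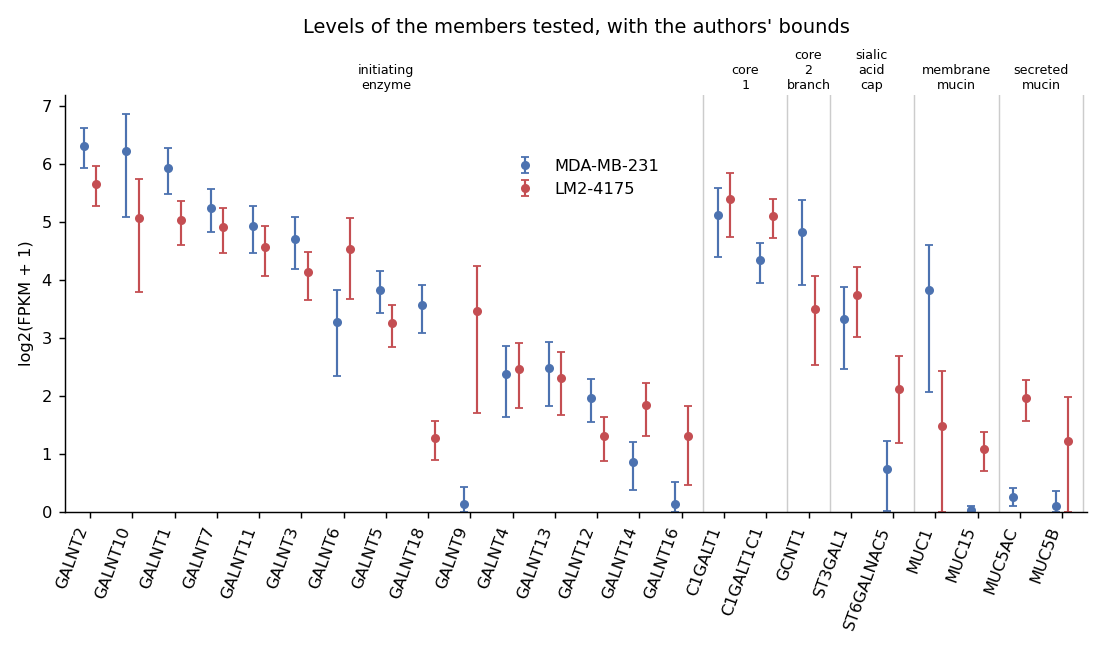
Level of each member tested, as log2(FPKM + 1), in MDA-MB-231 (blue) and LM2 (red), grouped by role, with bars from the authors' lower to upper bound (1 value per cell line, no replicate error). The bars are apart for GALNT1, GALNT18, GALNT9, GALNT14, C1GALT1C1, MUC15 and MUC5AC.

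As many members were higher as lower in LM2, 12 each. Their median log2 fold change of FPKM + 1 was -0.04, beside -0.04 for all genes tested. Over the 21 members with a mean of at least 1 FPKM it was -0.34, beside -0.05 for all genes at that filter. GALNT16, MUC15 and MUC5B, which passed the filter of 0.5 FPKM only through LM2, are left out there. A change of at least 1.5-fold, whatever the bounds, was seen for 9 higher and 7 lower members, beside 10.3% and 11.8% of all genes. Under a second rule, chosen after the values were seen, the difference had to exceed the root of the summed squares of the 2 distances from FPKM to upper bound. By this combined distance 8 members were higher and 6 lower, beside 6.49% and 7.64% of all genes. GALNT9, GALNT16, MUC5AC and MUC15, which passed the filter only through LM2, are in both higher counts, and MUC5B is in that by fold. These counts are therefore not read against the background either.

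**Figure D2:**
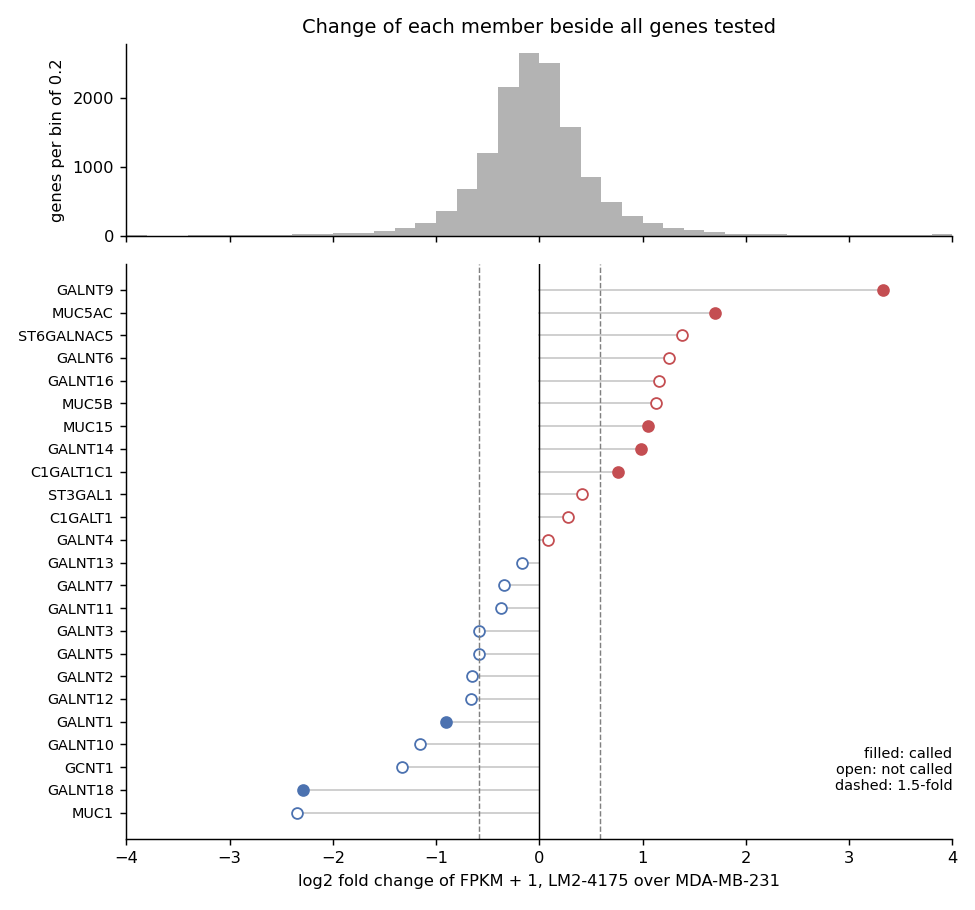
Upper panel, number of genes tested per bin of log2 fold change (values past 4 in either direction are in the end bins). Lower panel, log2 fold change of FPKM + 1 of each member tested, from MUC1 (-2.34) to GALNT9 (3.33), with filled points for the members called and dashed lines at 1.5-fold.

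Among the initiating enzymes, the most abundant ones were lower in LM2 and the others went both ways. Of 15 tested, 10 were lower with GALNT1 and GALNT18 called, and 5 were higher with GALNT9 and GALNT14 called. The median log2 fold change was -0.37. Of all 13911 genes tested, 7585 were lower and 6326 higher. All 6 enzymes with a mean of at least 20 FPKM were lower, by log2 fold changes of -1.16 to -0.34, although GALNT1 was the one called. The share of all genes at that level that were lower was not computed. With a mean under 5 FPKM 3 were higher and 2 lower, and at 5 to 20 FPKM 2 and 2. GALNT9 and GALNT16 passed the filter only through LM2, so they could only be higher. GALNT8 and GALNT15, with means of 0.032 and 0.036 FPKM, were not tested.

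GALNT2, GALNT10 and GALNT1, broadly expressed family members, held the highest levels in both cell lines. GALNT1 (ENSG00000141429, chromosome 18 of GRCh37, 33161081 to 33291798, plus strand) fell from 60.3 FPKM (bounds 43.9 to 76.8) to 31.8 FPKM (23.3 to 40.3). Its log2 fold change was -0.90, and the call was lost with a fold threshold of 2. GALNT2 (chromosome 1, 230193737 to 230417868) had 78.8 FPKM (59.9 to 97.7) in the parental line and 49.7 FPKM (37.7 to 61.6) in LM2, and the log2 fold change was -0.66. The bounds overlap, but the difference of -29.1 FPKM was larger than the combined distance, which gives -51.5 to -6.77. GALNT10, which prefers peptides that already carry GalNAc, had 74.2 FPKM (32.9 to 115.6) and 32.7 FPKM (12.9 to 52.6), and the interval of its difference spans 0 (-87.4 to 4.32). The bounds of GALNT10 are the widest of the 3 in relation to its level. Exons on the opposite strand share 13.3% of the exon bases of GALNT2.

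GALNT7, which like GALNT10 acts after other family members, had 37.1 FPKM (27.5 to 46.7) in the parental line against 29.1 FPKM (21.1 to 37.0) in LM2. GALNT11, another enzyme of the broadly expressed kind, had 29.6 FPKM (21.2 to 38.0) and 22.7 FPKM (15.9 to 29.5). GALNT3, known for protecting the phosphate hormone FGF23 from cleavage, had 25.2 FPKM (17.2 to 33.2) and 16.5 FPKM (11.6 to 21.5). GALNT5 had 13.3 FPKM (9.86 to 16.8) and 8.55 FPKM (6.22 to 10.9). These 4 were all lower by less than 1.5-fold on FPKM + 1, and the interval of the difference left out 0 for GALNT5 (-8.91 to -0.60 FPKM). GALNT12 had 2.92 FPKM (1.92 to 3.92) and 1.48 FPKM (0.84 to 2.13). The log2 fold change was -0.66 and the bounds overlap. An antisense gene shares 20.9% of its exon bases. GALNT13, a close relative of GALNT1, had 4.61 FPKM (2.57 to 6.66) and 4.0 FPKM (2.20 to 5.79), with a difference of -3.34 to 2.10 FPKM by the combined distance. GALNT4 had 4.21 FPKM (2.12 to 6.31) and 4.51 FPKM (2.48 to 6.55), with a difference of -2.62 to 3.22 FPKM. The value of GALNT4 is uncertain, because 94.1% of its exon bases are shared with other genes, nearly all of them with the read-through gene POC1B-GALNT4.

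GALNT18 (ENSG00000110328, chromosome 11, 11292424 to 11643552, minus strand) had the lowest log2 fold change of the enzymes, -2.29, and was called lower. It went from 10.8 FPKM (7.48 to 14.2) to 1.42 FPKM (0.87 to 1.97), and moved from the 8th to the 15th place among the 17 family members. GALNT9, a relative of GALNT18 known from the brain, went the other way. GALNT9 (ENSG00000182870, chromosome 12, 132680924 to 132905935, minus strand) increased from 0.10 FPKM (0 to 0.35) to 10.1 FPKM (2.26 to 17.9), and from the 15th to the 8th place. This is a log2 fold change of 3.33 on FPKM + 1 and of 5.67 on FPKM + 0.1, since the former scale understates the change of low genes. The upper bound in LM2 lies 77.6% above the FPKM, so the size of the increase is poorly determined, and exons of other genes share 10.2% of its exon bases. The ratio of GALNT9 to GALNT18 was 0.0092 in the parental line and 7.11 in LM2.

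GALNT14 (ENSG00000158089, chromosome 2, 31133333 to 31378068, minus strand) increased from 0.82 FPKM (0.31 to 1.32) to 2.59 FPKM (1.47 to 3.71). Its log2 fold change was 0.98 (1.55 on FPKM + 0.1), and the call was lost with a fold threshold of 2. GALNT16 had 0.10 FPKM (0 to 0.44) and 1.47 FPKM (0.38 to 2.56), with a log2 fold change of 1.16 (2.94 on FPKM + 0.1) and bounds that overlap slightly. Both belong to the same subfamily as GALNT2. They remained scarce beside it, at 0.052 and 0.030 of its level in LM2 against 0.010 and 0.0013 in MDA-MB-231.

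GALNT6, for which the study designed quantitative PCR primers, had 8.69 FPKM (4.12 to 13.3) in the parental line and 22.1 FPKM (11.8 to 32.5) in LM2. The log2 fold change was 1.26 and the bounds overlap, so the gene was not called. By the combined distance the difference was 2.14 to 24.8 FPKM. GALNT6 lies on chromosome 12 of GRCh37 (51745031 to 51786651, minus strand), and SLC4A8 on the opposite strand shares 5.34% of its exon bases. The PCR readout was not analysed here. The primer pair is printed because it shows which part of the transcript such a check reads. Both primers match 3 of the 19 annotated GALNT6 transcripts, in coding sequence, with a product of 89 bases and no match in a transcript of another gene.
forward, GRCh37, chr12:51771032-51771050: acagcgtcctacacaccac
reverse, GRCh37, across an exon junction between chr12:51759347 and chr12:51770983: cttctcctttaggtgctcctct

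The reverse primer spans exons 4 and 5 of ENST00000356317, and the forward primer lies in exon 4. GALNT6 and GALNT3, which are close relatives, changed order by FPKM. Their bounds in LM2 overlap (11.8 to 32.5 and 11.6 to 21.5 FPKM) and neither gene was called, so the order in LM2 is not settled. The ratio of GALNT6 to GALNT3 was 0.344 in the parental line and 1.34 in LM2.

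Summed over the 17 initiating enzymes, the level was 351.1 FPKM in the parental line and 238.8 FPKM in LM2, a ratio of 0.680. The distances to the upper bounds combine to 51.1 and 30.5 FPKM if they are independent between genes. GALNT2, GALNT10 and GALNT1 gave 60.8% of that sum in the parental line and 47.8% in LM2. GALNT6, GALNT9, GALNT14 and GALNT16, picked because they were past 1.5-fold higher, gave 2.77% and 15.2%. Without GALNT9 the ratio of the sums was 0.652. Over all genes of the table the FPKM also summed to less in LM2, 598147 against 632944 in the parental line. The sums of the enzymes were not rescaled for this.

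**Figure D3:**
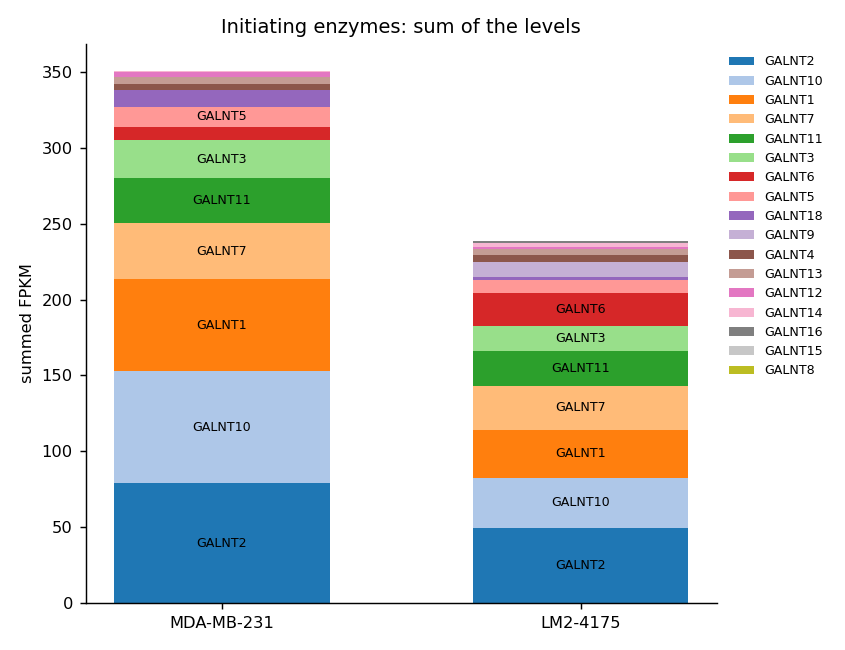
Sum of the FPKM of the 17 initiating enzymes in each cell line, stacked by gene in the order of mean level. The bars reach 351.1 FPKM (MDA-MB-231) and 238.8 FPKM (LM2), with less GALNT2, GALNT10 and GALNT1 and more GALNT6 and GALNT9 in the latter.

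Of the enzymes that extend the first sugar, C1GALT1C1 was called higher, and C1GALT1 and GCNT1 were not called. C1GALT1C1 (ENSG00000171155, chromosome X, 119759529 to 119763909, minus strand), the chaperone of core 1 synthesis, rose from 19.2 FPKM (14.4 to 24.0) to 33.4 FPKM (25.5 to 41.3). The log2 fold change was 0.76, and with a fold threshold of 2 the gene was not called. C1GALT1, the core 1 synthase, had 33.7 FPKM (20.1 to 47.4) and 41.2 FPKM (25.8 to 56.6), and the interval of its difference spans 0 (-13.1 to 28.1). GCNT1, the core 2 branching enzyme, had 27.4 FPKM (14.1 to 40.7) in the parental line and 10.3 FPKM (4.84 to 15.8) in LM2. Its log2 fold change was -1.33, and the bounds overlap, so it was not called. By the combined distance the difference was -31.5 to -2.67 FPKM. The ratio of C1GALT1 to GCNT1 was 1.23 in the parental line and 4.0 in LM2.

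Of the 3 sialyltransferases, none was called. ST3GAL1, which caps the galactose of core 1, had 9.10 FPKM (4.52 to 13.7) and 12.4 FPKM (7.08 to 17.8). ST6GALNAC5, known mainly from the synthesis of gangliosides in the brain, had 0.68 FPKM (0.012 to 1.34) in the parental line and 3.38 FPKM (1.28 to 5.48) in LM2. Its log2 fold change was 1.39 (2.17 on FPKM + 0.1) and the bounds overlap slightly. It was called higher after scaling to TPM or by upper quartiles. ST6GALNAC1, which adds sialic acid directly to GalNAc, was listed at 0 in both cell lines. The status column passed all members as OK, so this 0 is not marked as a failed estimate. The number of fragments behind it is unknown, and it is not read as absence.

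Most mucin genes were scarce in both cell lines. Of the 4 that could be tested, MUC1 was lower in LM2, and MUC5AC, MUC5B and MUC15 were higher. The latter passed the filter only through LM2 and could only be higher, so the directions of the mucins are not compared. MUC1, a membrane mucin of breast epithelium, was the highest in MDA-MB-231. MUC1 (ENSG00000185499, chromosome 1 of GRCh37, 155158300 to 155162707, minus strand) measured 13.3 FPKM (3.23 to 23.3) in the parental line and 1.81 FPKM (0 to 4.39) in LM2. Its log2 fold change of -2.34 was the lowest of the members, but the bounds are wide and overlap, so MUC1 was not called. The combined distance gives a difference of -21.8 to -1.09 FPKM.

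MUC5AC, a gel-forming mucin of the airway and stomach surface, and MUC15, a membrane mucin, were called higher in LM2. MUC5AC (ENSG00000215182, chromosome 11, 1151580 to 1222364, plus strand) increased from 0.20 FPKM (0.073 to 0.33) to 2.90 FPKM (1.96 to 3.84). On the log2 scale the change was 1.70 (3.32 on FPKM + 0.1). MUC15 (ENSG00000169550, chromosome 11, 26580579 to 26593810, minus strand) increased from 0.021 FPKM (0 to 0.074) to 1.12 FPKM (0.64 to 1.61). On the log2 scale the change was 1.06 (3.34 on FPKM + 0.1). With a mean of 0.57 FPKM it was not tested where the filter was set at 1 FPKM, so that the call ended there. Exons of ANO3 on the opposite strand share 4.88% of the exon bases of MUC15, and no other gene shares exon bases of MUC5AC.

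MUC5AC lies in a cluster of gel-forming mucin genes with MUC6, MUC2 and MUC5B. MUC5B, the other main airway gel mucin, had 0.071 FPKM (0 to 0.29) in the parental line and 1.34 FPKM (0 to 2.95) in LM2, with a log2 fold change of 1.13 (3.07 on FPKM + 0.1) and overlapping bounds. MUC2, the gel mucin of the intestine, was at 0 in the parental column and had 0.17 FPKM (0.0060 to 0.33) in LM2, under the filter. MUC6 had 0.0040 and 0.0083 FPKM. Of the 4 genes of the cluster, MUC5AC was the one called, and MUC2 and MUC6 were too low to test.

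Summed over the membrane mucins the level was 14.2 FPKM in the parental line, most of it MUC1, against 3.31 FPKM in LM2. Over the secreted mucins it was 0.276 FPKM in the parental line against 4.42 FPKM in LM2, most of it MUC5AC in the latter. MUC1 was not called because its bounds overlap, and MUC5AC and MUC5B passed the filter only through LM2. The bounds were not combined for these sums, so no shift from membrane to secreted mucins is read from them. In all, 15 of the 19 mucin entries were too low to test, with means of at most 0.30 FPKM (MUC12). MUC4, a membrane mucin, had 0.39 FPKM (0 to 0.83) and 0.060 FPKM (0 to 0.21). MUC17, MUC7, MUC21, MUC8 and the MUC3A entry ENSG00000228273 were listed at 0 in both cell lines, and MUC16 and MUC22 in LM2. The second MUC3A entry (ENSG00000169894) had 0.11 and 0.020 FPKM, and since the entries carry the same symbol, reads of the gene could have been split. MUC13, MUC19 and MUC20 were under 0.02 FPKM in both cell lines.

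Of the genes of the same pathway that are not members, 31 were tested and 2 were called higher and 0 lower, beside 4.67% and 4.61% of all genes, a share near the background. Of 21 further extension and capping enzymes, 15 were tested, 1 was called higher and 0 lower. The gene called was B3GNT3, which extends O-glycans with N-acetylglucosamine and rose from 0.84 FPKM (0.42 to 1.27) to 2.46 FPKM (1.60 to 3.32). By the combined distance ST6GAL1 was also higher (1.2 and 3.59 FPKM), and ST3GAL4 (42.4 and 27.3 FPKM) and ST6GALNAC6 (49.0 and 27.6 FPKM) were lower. All 15 genes of nucleotide sugar supply were tested, and GFPT2, an enzyme at the entry of hexosamine synthesis, was the one called. GFPT2 rose from 23.1 FPKM (14.4 to 31.8) to 74.4 FPKM (47.7 to 101.1). The median over the nucleotide sugar list was -0.11 on the log2 scale. Of 8 tested genes for other O-glycan types, 0 were called, and POMT1 of O-mannosylation (21.1 and 8.84 FPKM) was lower by the combined distance. Among 8 tested mucin-like proteins under other symbols, PARM1 (0.22 to 2.59 FPKM) and OVGP1 (0.18 to 1.01 FPKM) were called higher and 0 were called lower. Both were under 0.5 FPKM in MDA-MB-231 and passed the filter only through LM2. By the combined distance PODXL, a sialomucin of podocytes and vessels with 129.3 and 77.2 FPKM, was lower. Of 4 GALNT-like genes under other symbols, POC1B-GALNT4 alone was tested and was not called.

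Genes of mucus-secreting epithelium were also examined. Of 15 such genes, 5 were tested and these 5 were called lower in LM2, beside 4.61% of all genes tested. TFF1 and TFF2 were under 0.5 FPKM in LM2 and passed the filter only through MDA-MB-231, so the count is not read against the background. Among the genes too low to test, FOXA3 (0.31 and 0.53 FPKM) and ATOH1 (0 and 0.087 FPKM) had the higher value in LM2. AGR2, a disulfide isomerase needed for mucin folding, fell from 24.9 FPKM (16.9 to 33.0) to 1.71 FPKM (0.79 to 2.63). CREB3L1, a transcription factor of the secretory pathway, fell from 58.8 to 22.4 FPKM, and SPDEF, a goblet cell transcription factor, from 9.20 to 5.04 FPKM. The trefoil factors TFF1 (2.37 to 0.21 FPKM) and TFF2 (1.00 to 0.11 FPKM), which are secreted with mucins, were also called lower. General epithelial genes were among those called lower too. Of 7 tested genes in a list of breast epithelial and hormone receptor genes, KRT8 (625.7 to 180.2 FPKM), KRT18 (448.5 to 181.1), KRT19 (250.3 to 36.3) and EPCAM (12.3 to 4.93) were called lower and 0 higher, and ESR1 (0.033 and 0.019 FPKM) and PGR (0.012 and 0.0044 FPKM) were near 0. VIM, a mesenchymal gene, had 1355 and 1768 FPKM, and of the 3 mesenchymal genes tested FN1 was called lower. The 4 white blood cell genes, the endothelial gene CDH5 and the 4 lung epithelium genes were all too low to test, with SFTPC listed at 0 in both cell lines. Their summed levels were 0.525 and 0.187 FPKM for white blood cells, 0.035 and 0.086 FPKM for CDH5, and 0.722 and 0.088 FPKM for lung epithelium. The part of the epithelial genes in the MUC1 values was not tested.

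**Figure D4:**
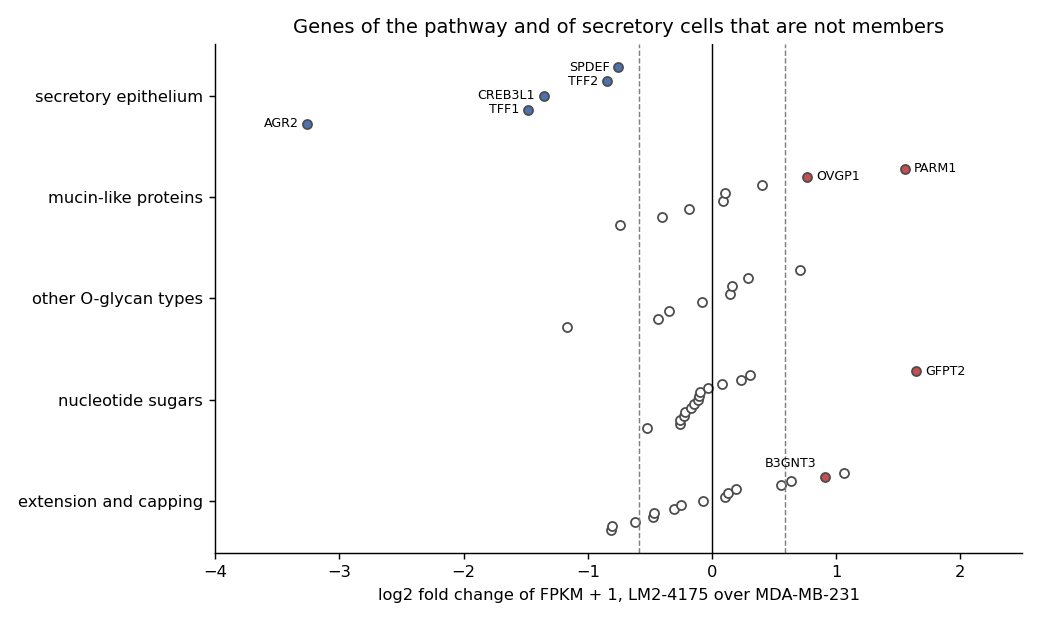
Log2 fold change of FPKM + 1 for each gene tested in 5 lists of genes that are not members, with filled points for genes called and dashed lines at 1.5-fold. The 5 secretory epithelium genes lie at -3.26 to -0.75, while the nucleotide sugar genes other than GFPT2 lie between -0.52 and 0.30.

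The genes beside the members called were examined as well, as protein-coding genes tested within 1 Mb. Around C1GALT1C1 all 10 neighbours were higher, with a median log2 fold change of 0.41 and 1 call, and its nearest neighbour MCTS1 had 0.51, against a median of 0.10 for the 389 other genes tested on chromosome X. For the other members called, the medians of the neighbours lay between -0.14 and 0.25. The 13 neighbours of GALNT1 had a median of -0.03, although the 168 other genes tested on chromosome 18 had a median of -0.40 with 27 called lower and 6 higher. Around GALNT18, 9 of 11 neighbours were higher (median 0.25). The 19 neighbours of GALNT9 had a median of -0.06, the 7 of GALNT14 had -0.14, the 43 of MUC5AC had -0.03 and the 3 of MUC15 had 0.05.

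**Figure D5:**
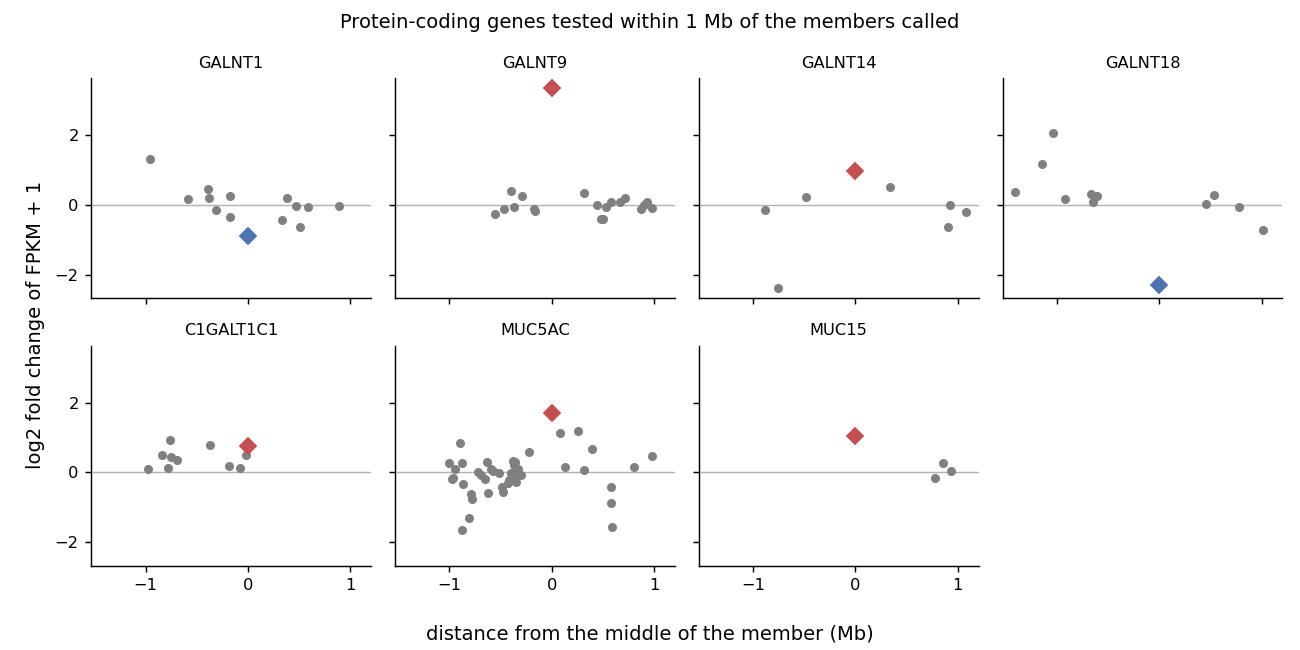
Log2 fold change of FPKM + 1 of protein-coding genes tested within 1 Mb (grey points) of each member called (diamond at 0, red for higher and blue for lower in LM2), by the distance between gene middles in Mb. The neighbours of C1GALT1C1 all lie above 0, and those of GALNT9 lie between -0.39 and 0.39.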

How the data were processed

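Total RNA of 2 libraries per cell line was analysed, 4 libraries in all. The authors mapped the reads to hg19 with TopHat2, quantified GENCODE 19 genes with the Cufflinks tools (Cuffdiff per the labels) and deposited 1 FPKM with 2 bounds and a status for every gene in each cell line, with the libraries combined. The method of library-size normalization and the use of strand are not given in the sources used here. Depth per gene is unknown. The bounds are the measure of precision at hand, and which spread they cover is not stated.

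The columns were read in Python 3.11.15 with pandas 2.3.3 and NumPy 2.4.6, and figures were drawn with Matplotlib 3.10.9. Changes are log2 ratios of FPKM + 1 across all 13911 genes tested, called as described in the report, without a test between replicates. Members, lists and rules were chosen with earlier results of these data known. All members are named, by value where the mean reached 0.5 FPKM and otherwise by value or range. Of other lists the genes called are named, and any further gene was picked with its values known. Of the lists' genes, 21 of 21, 4 of 7, 15 of 15, 9 of 9, 12 of 14 and 15 of 15 were found, in the order extension, GALNT-like, nucleotide sugars, other O-glycans, mucin-like and secretory. Coordinates, gene types and exon sharing are from GENCODE 44 on GRCh37, matched by Ensembl ID for 55535 of 57815 genes.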

Additional observations from a re-analysis of the deposited data

How the results depend on the processing

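Scaling to TPM or by upper quartiles turned the direction of no member tested. The other settings among the 9 tried cannot change the sign of a log2 ratio, so they do not check the direction. With 0.1 FPKM as pseudocount, without the filter, or with the bounds alone, 5 members were called higher and 2 lower, as reported. With the filter at a mean of 1 FPKM, 4 were called higher, because MUC15 was no longer tested, and 2 lower. As TPM or after scaling by upper quartiles, 6 were called higher, ST6GALNAC5 being added, and 2 lower. With a fold threshold of 2, 3 were called higher and 1 lower, and GALNT1, GALNT14 and C1GALT1C1 lost their call. With the fold alone 9 were higher and 7 lower, and with the combined distance, a rule added after the data were seen, 8 and 6. Among the pathway genes that are not members (extension, GALNT-like and nucleotide sugar lists), 2 were called higher and 0 lower. There the fold alone gave 4 and 3. Scaling to TPM or by upper quartiles gave 4 higher, and a fold threshold of 2 gave 1 higher. The combined distance gave 3 higher and 2 lower. A pseudocount of 0.1 FPKM or the bounds alone gave 3 higher. The median log2 fold change of the members tested was -0.0526 with a pseudocount of 0.1, -0.0022 over the 36 members kept without the filter, -0.34 at a mean of at least 1 FPKM, 0.0244 as TPM and 0.0396 after scaling by upper quartiles. In the same order, the medians over all genes tested were -0.0516, 0.0002, -0.0544, 0.0267 and 0.0431. Over all genes, 735 were called higher and 547 lower as TPM, and 753 and 525 after scaling by upper quartiles, beside 649 and 641 as reported. No paired analysis was possible because the table holds 1 value per cell line, and for the same reason no library could be left out. How firmly a member can be called is limited by its bounds, whose upper end lay 23.7% (C1GALT1C1) to 142% (MUC1) above the FPKM in LM2 among the members tested. In MDA-MB-231 the upper end lay 24.0% (GALNT2) to 322% (GALNT16) above the FPKM. For the called members MUC15 and GALNT9 it lay 254% and 250% above it there.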
